A study of Mus musculus with 17 samples.

Results

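Messenger RNA levels of 9 genes were followed in mouse macrophages: Acod1, which encodes the itaconate synthase, and Cs, Idh3a, Idh1, Idh2, Ogdh, Suclg1, Fh1 and Mdh2, which encode enzymes that make or use the intermediates of the tricarboxylic acid (TCA) cycle. The genes were chosen by symbol, and each had 1 row among the 21683 rows of the expression table. All 9 passed the filter on low values, as did 10451 genes in all. Peritoneal macrophages (PMs), drawn into the cavity with thioglycollate, were profiled by RNA-Seq in 3 groups to examine how the HIV protein Tat, the viral transactivator that infected cells also release, acts on macrophages with and without IKKβ, a kinase that activates the transcription factor NF-κB. PMs of IKKβF/F mice were given PBS (F/F PBS, n = 6 libraries) or 100 nM Tat (F/F Tat, n = 6), and PMs of IKKβΔMye mice were given 100 nM Tat (ΔMye Tat, n = 5).

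All groups shared the loxP-flanked IKKβ alleles, a further mutation, the C57BL/6 background and an age of 8 weeks, and the methods state that experimental mice were male. The ΔMye mice also carried 1 copy of Cre knocked in at the LysM locus (Lyz2), which is active in macrophages, neutrophils and other myeloid cells. Mice received 1 mL of 3% thioglycollate into the peritoneum, 3 days before the harvest in the sample labels and 4 days in the methods. After 4 h of attachment, PBS or Tat was added for 12 h. The libraries analysed here include no PBS group of ΔMye PMs, so the interaction between genotype and treatment cannot be tested. A difference that existed before Tat and a difference in the response to Tat cannot be told apart in the comparison of ΔMye Tat with F/F Tat. The study describes its replicates as mice, but the labels do not tie libraries to mice, so p-values measure the spread between these libraries.

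The TCA cycle runs in mitochondria, where citrate synthase joins acetyl-CoA to oxaloacetate and a series of dehydrogenases passes electrons to the respiratory chain while the carbon returns to oxaloacetate. On the way from citrate to isocitrate the cycle passes through cis-aconitate, from which ACOD1 removes carbon dioxide to give itaconate. Activated macrophages are known for making itaconate in large amounts, for a lower flux through isocitrate dehydrogenase, and for the build-up of citrate and succinate, since itaconate also inhibits succinate dehydrogenase.

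The promoters of Acod1, Idh1 and Idh2 are shown because these were the genes with the largest differences after Tat. The sequences are from RefSeq (GRCm38.p6) and end before both the RefSeq start of the gene and the GENCODE start. They cover chr14:103046762-103046976 on the plus strand for Acod1, chr1:65186501-65186729 on the minus strand for Idh1 and chr7:80115393-80115600 on the minus strand for Idh2. Capitals mark matches to the CCAAT box, the GC box (GGGCGG) or the κB motif. The κB letters searched were GGGRNNYYCC, with R for A or G, Y for C or T and N for any base. TATAAA and the interferon-stimulated response element were searched too, all of them on both strands, so that ATTGG is CCAAT and CCGCCC is GGGCGG read on the other strand.
Acod1: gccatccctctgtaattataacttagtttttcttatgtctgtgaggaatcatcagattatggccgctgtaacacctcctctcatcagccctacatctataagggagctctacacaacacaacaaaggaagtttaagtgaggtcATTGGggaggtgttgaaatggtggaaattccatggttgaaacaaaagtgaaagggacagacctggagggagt
Idh1: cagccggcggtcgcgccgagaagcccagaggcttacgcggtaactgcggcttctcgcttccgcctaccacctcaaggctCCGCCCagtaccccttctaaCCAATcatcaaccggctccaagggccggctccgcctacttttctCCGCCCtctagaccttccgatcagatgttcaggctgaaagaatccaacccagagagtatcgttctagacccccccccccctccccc
Idh2: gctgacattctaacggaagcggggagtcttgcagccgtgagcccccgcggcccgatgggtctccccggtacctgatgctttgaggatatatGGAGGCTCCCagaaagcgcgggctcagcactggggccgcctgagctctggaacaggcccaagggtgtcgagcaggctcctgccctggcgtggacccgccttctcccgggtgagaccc

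In the 250 bases before the RefSeq start, Acod1 held 1 CCAAT and 1 TATAAA, the latter from 28 to 23 bases before that start and past the GENCODE start, where it is not printed. Of all 32851 promoter windows of that length, 33.8% held CCAAT and 12.4% held TATAAA. The window of Acod1 held 0 κB motifs and 0 interferon-stimulated response elements (2.98% of all windows held 1 or more of the latter), which says only that these letters are not in these bases. Looser forms of the κB motif were not searched. The printed Acod1 stretch holds tggaaattcc, which departs from the κB letters searched only at its first base. The window at the Idh1 start shown held 1 CCAAT and 2 GC boxes (32.7% of all windows held at least 1 GC box). Idh1 had a second RefSeq start, not shown, whose window (chr1:65179143-65179392, minus strand) held 0 CCAAT and 1 GC box. The window of Idh2 held 1 match to the κB motif, as did 7.25% of all windows, with 1 CCAAT that crosses the end of the printed stretch and 2 GC boxes past it, none of them in capitals. These matches are descriptions of the sequence and not of binding.

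All 8 macrophage markers on the list averaged at least 1 TPM in every group, and Adgre1, which encodes the surface protein F4/80, averaged 499 TPM (F/F PBS), 441 TPM (F/F Tat) and 512 TPM (ΔMye Tat). Other markers on the list moved more. Csf1r, the receptor of a macrophage growth factor, averaged 381, 64.0 and 104 TPM in the same order, Cd14, a receptor for bacterial lipopolysaccharide, averaged 203, 842 and 1009 TPM, and Lyz2, the lysozyme gene, averaged 22382, 6993 and 4333 TPM. By the adjusted p (limma), 3 of the 8 were higher and 5 lower after Tat, beside 17% and 67.6% of all tested genes. After scaling 4 were higher and 2 lower, beside 37.3% and 38%. TPM is a level per transcript length, as a share of all transcripts of a library. Ikbkb, the gene of IKKβ, was lower in ΔMye Tat (16.4 ± 2.59 TPM, SD, n = 5) than in F/F Tat (23.2 ± 1.44, n = 6) with no overlap. Since Cre removes only part of the gene, its whole-gene level is a weak check of the label. The listed TPM of a library summed to between 889318 and 903576. The median tested gene was lower after Tat, with a log2 difference of -0.65, and was higher by 0.22 in ΔMye Tat compared with F/F Tat. A second estimate, here called scaled, therefore set the median gene of the libraries level (median-ratio scaling), and is given where it moved a result.

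Tat changed the balance between the itaconate synthase and the TCA cycle enzymes in F/F PMs. Acod1 rose to 10.8 times its F/F PBS level (ratio of mean TPM), whereas the summed level of the 8 TCA enzymes was 632 ± 8.78 TPM (SD, n = 6) in F/F PBS and 279 ± 4.29 TPM (n = 6) in F/F Tat. The deepest falls were those of both NADP-dependent isocitrate dehydrogenases, Idh1 and Idh2, which kept 3.84% and 7.97% of their F/F PBS means. They went from 116 and 52.9 TPM in F/F PBS to 4.45 and 4.22 TPM in F/F Tat, a large part of the fall of the sum. The sum is of TPM as deposited, where the median tested gene also had a log2 difference of -0.65. With an adjusted p below 0.01 and more than a 3-fold difference (limma), 1 of the 9 genes was called higher and 2 were called lower. Of all tested genes, 5.21% were called higher and 19.4% lower by this rule. The same 3 genes were called after scaling, where the background was 8.51% higher and 9.73% lower. By the adjusted p alone, 1 was higher and 8 were lower, against a background of 17% higher and 67.6% lower. The libraries did not overlap for any of the 9 (background 15.3% higher and 62.4% lower). Scaled, 1 was higher, 5 were lower and 3 were neither by the adjusted p (background 37.3% and 38%). In bulk RNA, fewer cells of a type and less RNA per cell cannot be told apart.

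Acod1 (chromosome 14, 103046977 to 103056573, plus strand, 5 exons) encodes the itaconate synthase itself. It ranged from 271 to 302 TPM in F/F PBS, with a median of 279. In F/F Tat it ranged from 3013 to 3074 TPM, with a median of 3021. Every F/F Tat library was above every F/F PBS library, and no other gene of the 9 was above its F/F PBS range in F/F Tat. The log2 difference was 3.43 (standard error 0.027, adjusted p = 9.21e-26, limma), and 4.06 after scaling. Acod1 was already the highest of the 9 genes in F/F PBS, at 30.8% of their summed TPM, and reached 91.6% in F/F Tat. Its level per summed TPM of the 8 TCA enzymes was 0.445 ± 0.0140 in F/F PBS and 10.9 ± 0.194 in F/F Tat (SD, n = 6 each).

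Idh1 (chromosome 1, 65158616 to 65186500, minus strand) encodes the isocitrate dehydrogenase of the cytosol and peroxisomes, which makes NADPH and 2-oxoglutarate. It ranged from 109 to 122 TPM in F/F PBS, with a median of 117, and from 4.00 to 5.22 TPM in F/F Tat, with a median of 4.40. The groups lay far apart, and Idh1 was the 30th lowest of the 10451 tested genes by log2 difference. That difference was -4.68 (standard error 0.063, adjusted p = 2.61e-22, limma), and -4.05 after scaling. Idh2 (chromosome 7, 80094846 to 80115392, minus strand) encodes the mitochondrial enzyme of the same reaction. Its level ranged from 50.2 to 56.3 TPM in F/F PBS and from 3.49 to 4.82 TPM in F/F Tat, with medians of 53.0 and 4.30. Again no library of one group reached the other, with a log2 difference of -3.62 (standard error 0.078, adjusted p = 4.26e-19, limma), and -3.00 after scaling. None of the 31-base sequences of Acod1, Idh1 or Idh2 transcripts occurs in another gene of the reference.

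Idh3a, Suclg1 and Fh1 formed a middle group, with levels in F/F Tat at 37.9% to 39.2% of the F/F PBS means. Idh3a (chromosome 9, 54586334 to 54604661, plus strand) encodes the catalytic subunit of the NAD-dependent isocitrate dehydrogenase, the form that drives the cycle. It ranged from 13.9 to 19.7 TPM in F/F PBS (median 14.8) and from 5.05 to 7.24 TPM in F/F Tat (median 6.32). Suclg1 (chromosome 6, 73248382 to 73276911, plus strand) encodes the alpha subunit of succinyl-CoA ligase, which yields succinate. Its levels were 55.6 to 59.0 TPM in F/F PBS (median 58.3) and 21.5 to 24.4 TPM in F/F Tat (median 22.2). Fh1 (chromosome 1, 175600374 to 175625635, minus strand) encodes fumarase, which hydrates fumarate to malate. Fh1 was at 26.6 to 35.7 TPM in F/F PBS (median 31.4) and 9.28 to 14.3 TPM in F/F Tat (median 12.0). None of the 3 genes overlapped between the groups. The log2 differences were -1.36 for Idh3a (adjusted p = 6.80e-10), -1.35 for Suclg1 (adjusted p = 5.11e-17) and -1.41 for Fh1 (adjusted p = 3.46e-09, limma). They did not reach the 3-fold threshold, and after scaling they were -0.73, -0.71 and -0.78, each with an adjusted p under 0.01.

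Cs, Ogdh and Mdh2 differed least, and whether they passed as lower depended on the normalization. Cs (chromosome 10, 128337734 to 128362479, plus strand) encodes citrate synthase, the entry step. Its range was 87.6 to 96.1 TPM in F/F PBS (median 92.6) and 58.8 to 65.3 TPM in F/F Tat (median 61.3). Ogdh (chromosome 11, 6291633 to 6356642, plus strand) encodes the E1 component of the 2-oxoglutarate dehydrogenase complex. It was measured at 62.3 to 74.6 TPM in F/F PBS (median 68.2) and 42.3 to 48.8 TPM in F/F Tat (median 47.0). Mdh2 (chromosome 5, 135778480 to 135790398, plus strand) encodes the mitochondrial malate dehydrogenase, which regenerates oxaloacetate. The level of Mdh2 was 193 to 206 TPM in F/F PBS (median 197) and 116 to 125 TPM in F/F Tat (median 121). All 3 genes separated the groups as deposited, with log2 differences of -0.58 for Cs (adjusted p = 1.01e-10), -0.55 for Ogdh (adjusted p = 4.82e-07) and -0.71 for Mdh2 (adjusted p = 2.16e-15, limma). These lie close to the median of all tested genes. After scaling, the differences were 0.053 for Cs (adjusted p = 0.113), 0.088 for Ogdh (adjusted p = 0.148) and -0.073 for Mdh2 (adjusted p = 0.0709, limma), so the sign of Cs and Ogdh turned and none of the 3 passed the threshold. Under quantile normalization, which was also tried, all 3 stayed lower and passed the threshold, with Mdh2 at -0.75. Of the 31-base sequences of Cs, 5.55% occur in other genes, most of them in Csl (4.33%), so a small part of its reads could be shared.

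**Figure D1:**
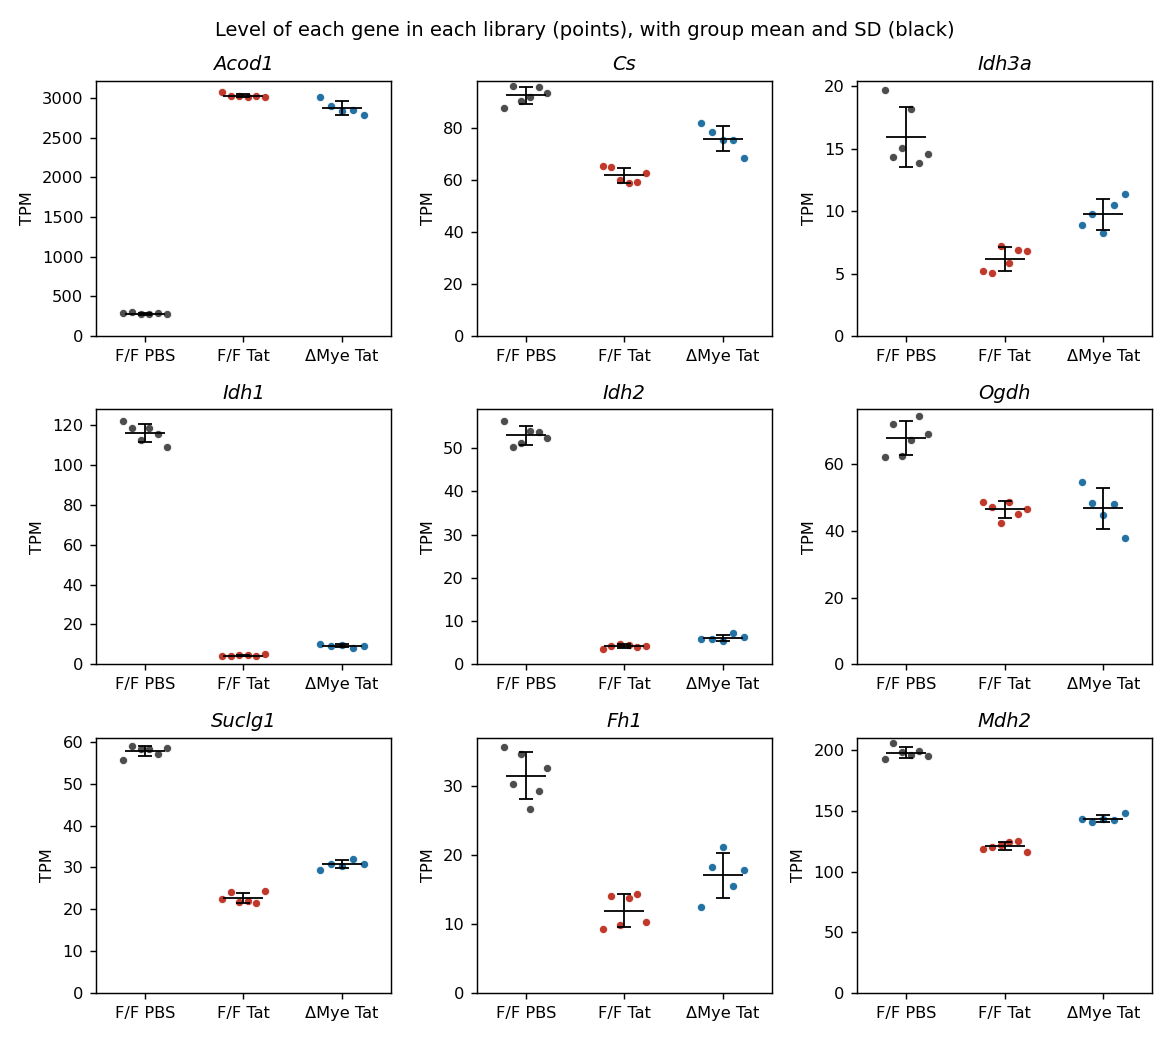
Level of each of the 9 genes in TPM (vertical axes, linear, starting at 0) in every library of F/F PBS (grey), F/F Tat (red) and ΔMye Tat (blue), with the group mean and SD in black. Acod1 is near 282 TPM in F/F PBS and near 3029 TPM in F/F Tat, whereas Idh1 and Idh2 are close to the bottom of the axis in both Tat groups.

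The other subunits of the cycle were compared next, since most of these enzymes are complexes. Of 11 listed subunits, 9 were lower after Tat by the adjusted p alone and 2 were neither, where 67.6% of all tested genes were lower. The median log2 difference was -0.77, beside -1.35 for the 8 TCA enzymes above and -0.65 for all tested genes. After scaling, 4 of the 11 were higher, Dlst, Dld and Sucla2 among them, and 6 were lower (background 37.3% higher and 38% lower). No common direction can be given for them. Suclg2, the subunit of the GTP-forming succinyl-CoA ligase, was the 1 subunit called by both thresholds, where 19.4% of all tested genes were called lower. It was at 7.57 ± 0.374 TPM (SD, n = 6) in F/F PBS and 1.41 ± 0.118 TPM (n = 6) in F/F Tat (log2 difference -2.34, adjusted p = 2.32e-10, limma). Dlst and Dld, the other 2 components of the 2-oxoglutarate dehydrogenase complex, had log2 differences of 0.028 (adjusted p = 0.478) and -0.016 (adjusted p = 0.693, limma), beside -0.55 for Ogdh. Within the NAD-dependent isocitrate dehydrogenase, the regulatory subunit Idh3g was as low as Idh3a (log2 difference -1.38, adjusted p = 5.79e-14) and Idh3b less so (-0.86, adjusted p = 3.06e-14, limma).

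The 4 subunits of succinate dehydrogenase, the enzyme that itaconate inhibits and that also forms complex II of the respiratory chain, moved little beyond the median of all genes. Their log2 differences were -0.77 for Sdha, -0.84 for Sdhb, -0.56 for Sdhc and -0.80 for Sdhd, with adjusted p from 8.05e-15 to 1.75e-11 (limma). After scaling they lay between -0.21 and 0.077. Sdha (-0.13), Sdhb (-0.21) and Sdhd (-0.17) still passed the threshold as lower (adjusted p = 0.00281, 0.00201 and 0.00354, limma). Sdhc (0.077) did not pass (adjusted p = 0.119, limma).

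**Figure D2:**
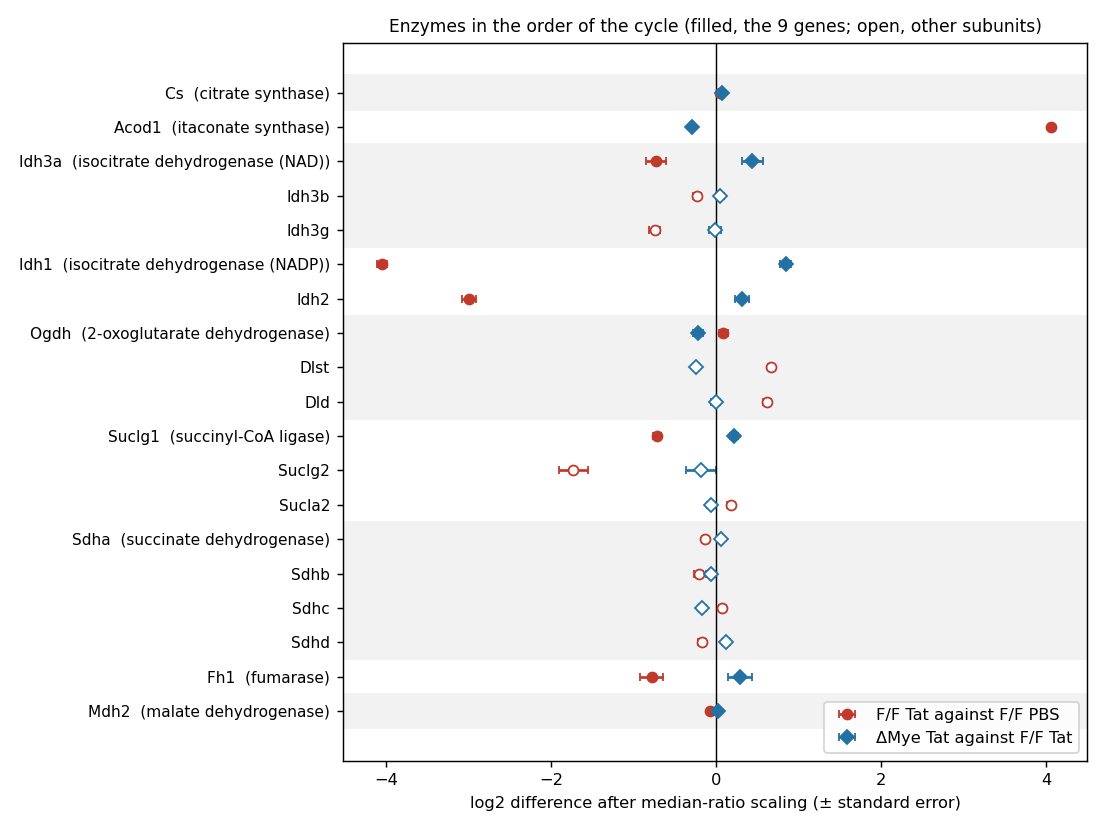
Log2 difference after median-ratio scaling (horizontal axis, with standard error) for enzymes in the order of the cycle, F/F Tat against F/F PBS in red and ΔMye Tat against F/F Tat in blue. Filled symbols are the 9 genes and open symbols are other subunits. Acod1 stands at 4.06, Idh1 at -4.05 and Idh2 at -3.00 after Tat, and Suclg2 at -1.73 is the lowest of the other subunits.

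The steps that feed and drain the cycle were compared in the same way. Of 13 tested genes of pyruvate entry, 11 were lower and 0 higher by the adjusted p (also 0 at an unadjusted p under 0.05, limma), and 5 were called by both thresholds, namely Pdk2, Pcx, Pdp1, Pdpr and Mpc2. Of all tested genes, 67.6% were lower by the adjusted p and 19.4% were called lower. After scaling, 7 of the 13 were lower, 2 higher and 4 neither (background 38% lower and 37.3% higher), and 2 were called, Pdk2 and Pcx. Pdk2, a kinase that switches off pyruvate dehydrogenase, had the lowest difference of the list at -4.56 (adjusted p = 2.21e-12, limma), from 4.03 ± 0.577 TPM in F/F PBS to 0.0772 ± 0.0379 TPM in F/F Tat (SD, n = 6 each). At such a low level the fold rests on the pseudocount. Pcx averaged 0.414 ± 0.515 TPM (SD, n = 6) in F/F Tat, with library 11 at 1.46 TPM. Without their F/F PBS libraries, Pdk2, Pcx and Pdk1, all counted as lower, would not have passed the filter on low values. Such genes entered only because they were high in F/F PBS, so their falls are no independent support. Pdk3, a kinase of the same family as Pdk2, had the highest value of the list, 0.069 (adjusted p = 0.400) as deposited and 0.70 (adjusted p = 2.60e-07, limma) after scaling. All 9 tested genes of the links to glutamine, aspartate and malate were lower by the adjusted p as deposited and 6 were after scaling, beside 67.6% and 38% of all tested genes. Of these, Glul, the glutamine synthetase, was the lowest, at 71.1 ± 3.89 TPM in F/F PBS and 8.74 ± 0.648 TPM in F/F Tat (SD, n = 6 each), a log2 difference of -3.01 (adjusted p = 2.03e-20, limma). Got2 and Pck2 were also called as deposited but not after scaling, where they were at -1.05 and -1.10.

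Among 5 mitochondrial carriers, Slc25a12, an aspartate/glutamate carrier, rose, with a log2 difference of 0.54 (adjusted p = 1.56e-05, limma). The second such carrier, Slc25a13, fell by 1.82 (adjusted p = 2.70e-13), and the dicarboxylate carrier Slc25a10 fell by 1.77 (adjusted p = 5.16e-15, limma). Scaled, these 2 were at -1.19 and -1.14, under the 3-fold threshold. The cytosolic counterparts Mdh1, Aco1 and Acly fell by 1.73, 1.53 and 0.94, with adjusted p of 1.11e-15, 7.65e-16 and 2.63e-12 (limma). Mdh1 was past the 3-fold threshold as deposited and not after scaling (-1.09). Clybl, which encodes a mitochondrial lyase that clears citramalyl-CoA, a product of itaconate breakdown, was called lower, from 7.63 ± 1.07 TPM in F/F PBS to 0.934 ± 0.379 TPM in F/F Tat (SD, n = 6 each, log2 difference -2.97, adjusted p = 4.75e-10, limma).

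Ratios of 2 genes within a library do not depend on the scaling between libraries, and 4 of them were tested in the 3 comparisons, which gives 12 exact two-sided permutation tests adjusted together, with a threshold of 0.05 for the adjusted p. The results of 3 ratios are given. Idh1 per Idh2 was 2.19 ± 0.0912 in F/F PBS and 1.06 ± 0.101 in F/F Tat (SD, n = 6 each), with no overlap, so the cytosolic form lost more than the mitochondrial one (log2 difference -1.05, exact p = 0.00216, the smallest that these groups allow, adjusted p = 0.00577). The same held for malate dehydrogenase, where Mdh1 per Mdh2 was 0.464 ± 0.0317 and 0.229 ± 0.0168 (log2 difference -1.02, exact p = 0.00216, adjusted p = 0.00577). Suclg2 per Sucla2, the GTP-forming over the ATP-forming subunit of succinyl-CoA ligase, was 0.200 ± 0.0204 and 0.0511 ± 0.00280 (log2 difference -1.89, exact p = 0.00216, adjusted p = 0.00577).

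**Figure D3:**
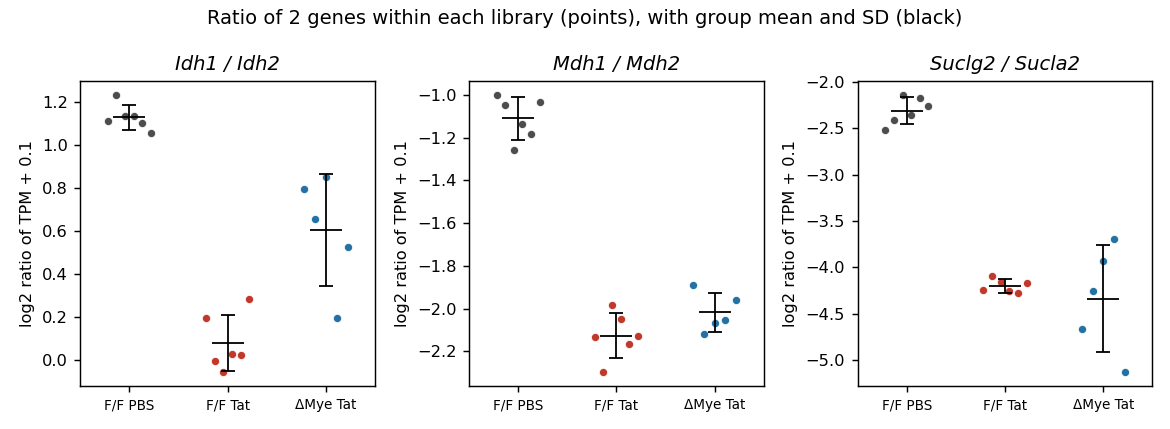
Log2 ratio of 2 genes (TPM + 0.1) in every library, with the group mean and SD in black, for F/F PBS (grey), F/F Tat (red) and ΔMye Tat (blue). In all 3 ratios the F/F PBS and F/F Tat libraries do not overlap, and Suclg2 per Sucla2 is more spread in ΔMye Tat than in F/F Tat.

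The comparison of ΔMye Tat with F/F Tat addressed how these levels differ between PMs with and without myeloid IKKβ when both have received Tat. Acod1 stayed high in ΔMye Tat, at 95.0% of its F/F Tat mean, and 7 of the 8 TCA enzymes were higher in ΔMye Tat by the adjusted p alone, by 1.18 to 2.10 times as a ratio of means. By both thresholds 0 of the 9 genes were called in either direction (limma), where 0.44% of all tested genes were called higher and 0.316% lower. By the adjusted p alone 7 were higher and 0 lower, against 38.8% and 8.87% of all tested genes, and at an unadjusted p under 0.05 these counts were 7 and 1. The libraries of the groups did not overlap, with ΔMye Tat higher, for 6 genes (28.6% of all tested genes), and with ΔMye Tat lower for 1, Acod1 (8.01%). After scaling 4 of the 9 (Idh1, Idh2, Idh3a and Suclg1) were higher and 2 (Acod1 and Ogdh) were lower, beside 15.9% and 19.4% of all tested genes.

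Acod1 in ΔMye Tat was 3013, 2903, 2837, 2849 and 2783 TPM. The highest of them lay just under the lowest F/F Tat library, so the groups did not overlap, by a narrow margin. The log2 difference was -0.075 (standard error 0.029, adjusted p = 0.0308, limma), which did not pass the threshold. It was -0.30 after scaling (adjusted p = 3.63e-08) and 0.057 after quantile normalization (adjusted p = 0.178, limma), so its direction depends on the normalization. Its level per summed TPM of the 8 TCA enzymes was 8.48 ± 0.133 (SD, n = 5), with a range of 8.38 to 8.70, below the 10.6 to 11.1 of F/F Tat.

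Idh1 had the largest difference of the 9, with 10.2, 9.16, 9.86, 8.45 and 9.16 TPM in ΔMye Tat. All 5 libraries were above the F/F Tat maximum and far below the F/F PBS minimum. The log2 difference was 1.06 (standard error 0.066, adjusted p = 1.28e-10, limma), and 0.84 after scaling. Idh2 was 5.81, 5.78, 5.42, 7.37 and 6.34 TPM in ΔMye Tat, also above every F/F Tat library, with a log2 difference of 0.53 (standard error 0.082, adjusted p = 1.96e-05, limma) and of 0.32 after scaling. Under quantile normalization the value for Idh2 was 0.25 and no longer passed (adjusted p = 0.0260, limma). Idh1 per Idh2 was 1.55 ± 0.268 (SD, n = 5) in ΔMye Tat, and its libraries overlapped those of F/F Tat (log2 difference 0.53, exact permutation p = 0.00866, adjusted p = 0.0104).

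Idh3a was 8.93, 9.80, 8.24, 10.5 and 11.4 TPM and Suclg1 was 29.5, 30.7, 30.3, 32.1 and 30.9 TPM in ΔMye Tat. Both were above all F/F Tat libraries, with log2 differences of 0.66 (standard error 0.12, adjusted p = 8.78e-05) and 0.44 (standard error 0.041, adjusted p = 4.06e-08, limma). Scaled, these were 0.44 and 0.22, and both passed the threshold. Idh3a did not pass under quantile normalization (0.39, adjusted p = 0.0249, limma). Fh1 was 12.5, 18.3, 21.1, 15.5 and 17.8 TPM, which overlapped F/F Tat in library 19. Its log2 difference of 0.51 (standard error 0.13, adjusted p = 0.00305, limma) fell below the threshold without library 21 (0.43, adjusted p = 0.0122) and after scaling (0.29, adjusted p = 0.108, limma).

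Cs was 81.9, 78.2, 75.4, 75.4 and 68.3 TPM and Mdh2 was 143, 141, 143, 143 and 148 TPM in ΔMye Tat. Both were above every F/F Tat library as deposited, with log2 differences of 0.29 (adjusted p = 1.47e-05) and 0.24 (adjusted p = 3.85e-07, limma), close to the 0.22 of the median gene. Scaled, they were 0.074 (adjusted p = 0.0649) and 0.024 (adjusted p = 0.631, limma). Ogdh was 54.7, 48.4, 44.9, 48.2 and 37.8 TPM, spread on both sides of F/F Tat. Its log2 difference was 0.0014 (standard error 0.073, adjusted p = 0.988, limma) as deposited and -0.22 after scaling (adjusted p = 0.00440, limma), and its sign also changed when single libraries were left out.

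**Figure D4:**
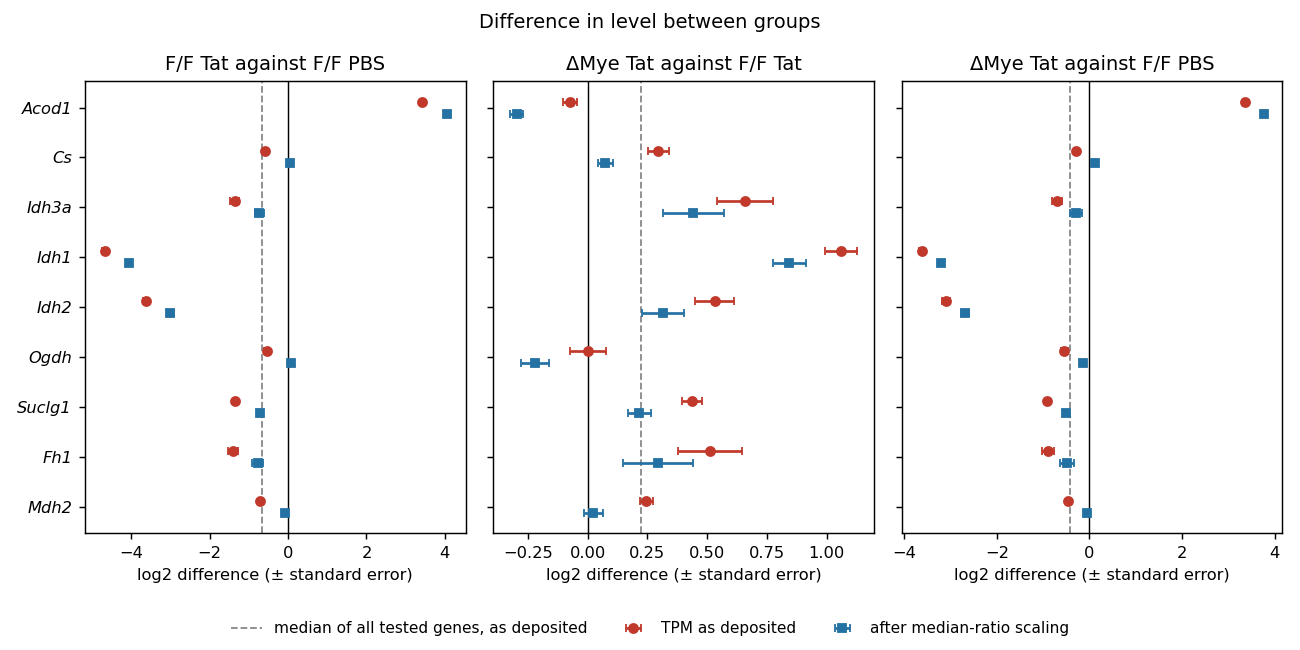
Log2 difference (horizontal axes, with standard error) of each of the 9 genes in the 3 comparisons, from TPM as deposited (red circles) and after median-ratio scaling (blue squares), with the median of all tested genes as deposited (dashed line). Acod1, Idh1 and Idh2 stand far from the dashed line with Tat, and Cs, Ogdh and Mdh2 as deposited lie close to it in both comparisons with F/F PBS. The axis of the middle panel covers a smaller range.

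Among the other subunits, 5 of 11 were higher in ΔMye Tat than in F/F Tat by the adjusted p alone (Idh3b, Dld, Sdha, Sdhb and Sdhd), beside 38.8% of all tested genes, and 0 lower (also 0 at an unadjusted p under 0.05, limma). After scaling 0 were higher and 3 were lower, Dlst and Sdhc among them, beside 15.9% and 19.4% of all tested genes. Suclg2 was 1.54 ± 0.607 TPM (SD, n = 5) in ΔMye Tat, with a log2 difference of 0.024 (adjusted p = 0.918, limma). Suclg2 per Sucla2 was 0.0496 ± 0.0196 there and overlapped F/F Tat (log2 difference -0.13, exact permutation p = 0.580, adjusted p = 0.580), and without library 23 this difference was 0.063. Mdh1 per Mdh2 also overlapped (0.247 ± 0.0159 in ΔMye Tat, log2 difference 0.11, exact permutation p = 0.104, adjusted p = 0.113). The log2 difference of Slc25a10 was 1.17 (adjusted p = 1.09e-10), that of Slc25a13 was 0.96 (adjusted p = 7.66e-08), and Slc25a12 fell by 0.55 (adjusted p = 6.28e-05, limma). Glul was higher by 0.71 (adjusted p = 3.48e-09, limma). These differences share the F/F Tat libraries with the comparison of Tat and PBS.

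Markers of other cells differed between the groups too. Of 8 listed markers of T cells and innate lymphoid cells, 5 were tested. All 5 were higher in ΔMye Tat than in F/F Tat by the adjusted p (limma), beside 38.8% of all tested genes. Cd8a, Cd3d and Cd3e would not have passed the filter on low values without the ΔMye Tat libraries, where they were higher, so this count is no independent support. The summed level of the 7 listed markers with a row was 3.59 to 4.60 TPM in F/F Tat and 10.4 to 13.1 TPM in ΔMye Tat. The neutrophil markers summed to 66.6 to 77.9 TPM and 87.5 to 106 TPM, most of it S100a8, with Elane at 0 in all libraries. Summed B cell markers were 11.3 to 15.0 TPM and 8.33 to 13.0 TPM, those of mast cells and eosinophils 29.5 to 41.8 TPM and 23.3 to 30.1 TPM, and those of mesothelial cells 1.91 to 3.40 TPM and 0.999 to 1.81 TPM. In F/F PBS, the T cell and innate lymphoid sum was 5.06 to 10.9 TPM and the neutrophil sum was 56.9 to 68.4 TPM. The macrophage markers summed to a median of 26429 TPM (F/F PBS), 10455 TPM (F/F Tat) and 8128 TPM (ΔMye Tat), most of it Lyz2, the gene that carries the Cre. The part of these markers in the differences above was not tested.

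Against F/F PBS, which shares libraries with both comparisons above, Acod1 was higher and the 8 TCA enzymes were lower in ΔMye Tat as deposited. By both thresholds 1 gene was called higher and 2 lower (background 4.38% and 11.1%), and by the adjusted p alone 1 was higher and 8 lower (background 17.5% and 58.8%). No gene of the 9 overlapped between these groups (background 14.8% higher and 52.8% lower). The log2 difference of Acod1 was 3.35 (adjusted p = 6.68e-25), that of Idh1 was -3.62 (adjusted p = 5.34e-20) and that of Idh2 was -3.09 (adjusted p = 2.06e-17, limma). Idh1 was at 8.08% and Idh2 at 11.6% of the F/F PBS mean. The other TCA enzymes ranged from -0.91 for Suclg1 to -0.29 for Cs, beside a median of -0.43 over all tested genes. After scaling, 2 were higher and 4 lower by the adjusted p (background 33.8% and 33.9%). Suclg1 (-0.50) and Fh1 (-0.48) still passed the threshold as lower, Cs was higher (0.13, adjusted p = 0.00144), and Idh3a, Ogdh and Mdh2 did not pass (adjusted p = 0.0493, 0.0486 and 0.251, limma). Under quantile normalization Cs, Ogdh and Mdh2 stayed lower and passed, and Idh3a did not pass.

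The order of the 9 levels changed between the groups. In F/F PBS it ran Acod1, Mdh2, Idh1, Cs, Ogdh, Suclg1, Idh2, Fh1 and Idh3a, and of the neighbours only Suclg1 and Idh2 overlapped. In F/F Tat, Idh1 and Idh2 stood last, after Idh3a, and these 3 overlapped from one neighbour to the next. ΔMye Tat had the order of F/F Tat, with Idh1 overlapping Idh3a but standing clear of Idh2. Of the tested genes, those whose pattern was most like that of Acod1 over the 17 libraries were Adora2b, Srgn, Cd38, Gbp2 and Ifi44, with root mean square differences from it of 0.14 to 0.17 on the log2 scale. Among the 8 TCA enzymes, the most alike pair was Cs and Mdh2, with a root mean square difference of 0.15.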

How the data were processed

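Per the labels and methods, the deposited values are TPM by gene symbol, which the authors computed with Salmon on the Ensembl genes of GRCm38. No read counts are given, so depth and counting error are not known, and precision rests on the spread among libraries. The 10451 genes at 1 TPM or more in 5 or more of 17 libraries entered limma (version 3.58.1, R 4.3.3; lmFit, contrasts.fit, eBayes with trend) as log2(TPM + 0.1), in 1 fit of the 3 groups with 14 residual degrees of freedom. P-values were adjusted over all tested genes (Benjamini-Hochberg). Log2 differences understate the change of low genes. Scripts were tested on simulated data. The members and lists were chosen with earlier results of these data known. Besides the 9 genes, the rule named the highest and lowest gene of each list, genes called by both thresholds, the genes of the ratios and the succinate dehydrogenase subunits. Other single genes were named after their values were seen. Some results of this rule and some details of the mice are not reported here. Likeness of pattern was the root mean square difference of log2(TPM + 0.1), each gene centred on its F/F PBS mean. Median-ratio scaling divided a library by the median, over genes, of its ratio to the geometric mean. Coordinates are from GENCODE M21 (GRCm38). At most 0.191% of tested genes had equal TPM in any of 136 library pairs. Also tried were quantile normalization, no filter or one at 5 TPM, pseudocounts of 0.5 and 1, no fold threshold, fits of the compared groups alone, and leaving out each library. Other software was Python 3.11.15 (scipy 1.17.1, numpy 2.4.6, matplotlib 3.10.9, pandas 2.3.3).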

Additional observations from a re-analysis of the deposited data

Results flagged for a closer look

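Acod1 in F/F Tat library 7 was 3074 TPM, apart from the other 5 F/F Tat libraries, which lay between 3013 and 3027 TPM. Its gap to the nearest of them was 0.777 of the whole range of the group. Of 39 groups of values tested in this way, 1 stood out, and chance gives about 1 in 20.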

How the results depend on the processing

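No paired analysis was possible because the groups share no replicate numbers. With each library left out in turn, 690 values kept their direction and side of the threshold (adjusted p of 0.01, or 0.05 for ratios), 6 changed direction and 1 no longer passed the threshold (Fh1 between the Tat groups without ΔMye Tat library 21). The counts of called genes were unchanged (1 higher and 2 lower for both comparisons with F/F PBS, 0 between the Tat groups), and without a fold threshold they were 8 lower, 7 higher and 8 lower. Acod1 ranged from 3.42 to 3.45 (F/F Tat against F/F PBS), from -0.091 to -0.063 (ΔMye Tat against F/F Tat) and from 3.34 to 3.37 (ΔMye Tat against F/F PBS). Between the Tat groups it was -0.30 after median-ratio scaling and 0.057 after quantile normalization. Median-ratio scaling reversed Cs (0.053) and Ogdh (0.088) for Tat, Ogdh (-0.22) between the Tat groups, and Cs (0.13) for ΔMye Tat against F/F PBS. Ogdh between the Tat groups was also reversed after quantile normalization (-0.12) and without F/F Tat library 9 (-0.025) or 11 (-0.0069), or ΔMye Tat library 19 (-0.057), 20 (-0.013) or 22 (-0.012), with a highest value of 0.076 without ΔMye Tat library 23. The adjusted p of the ratios rose with fewer libraries, to at most 0.0104 when F/F Tat and 0.0127 when ΔMye Tat was compared with F/F PBS, and that of Idh1/Idh2 between the Tat groups lay between 0.00952 and 0.0229. Log2 Suclg2/Sucla2 between the Tat groups ranged from -0.29 to 0.063 and changed sign without ΔMye Tat library 23. Each library's shares of the TPM total set the levels as deposited, whereas scaling sets the median gene equal. The cause of the other changes was not tested. Pseudocounts, filters and a fit of only the compared groups changed no call.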
